A study of Rattus norvegicus with 6 samples.

Results

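A set of 10 neuronal genes whose transcripts respond to synaptic activity were followed in the amygdala of young rats that had been tested for social play (B-CTRL) and of rats that had not (NB-CTRL). They were the features of the deposited table whose symbol was Arc, Npas4, Homer1, Plk2, Bdnf, Nptx1, Nptx2, Nrn1, Vgf or Scg2. Each symbol matched 1 feature, so all 10 of 10 genes were found among 32662 features, and all 10 were among the 14043 features tested. Arc, Npas4, Homer1 and Plk2 formed the early class (4 genes) and Bdnf, Nptx2, Nrn1, Vgf and Scg2 the delayed class (5 genes), while Nptx1 belonged to neither. The data were 6 RNA-seq libraries, 3 B-CTRL and 3 NB-CTRL, from Sprague Dawley rats labelled male and sampled on postnatal day 38. Both groups share this outbred strain, the tissue and the age, and no other treatment or allele is labelled. The time between the play test and tissue collection is not given in the sources used here, and whether each library came from a separate rat is not stated, so the p-values refer to variation among the libraries, which may be technical. Levels are FPKM (fragments scaled to transcript length and to the number of mapped fragments), so they can be compared between genes.

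When a neuron fires, calcium entry activates kinases and transcription factors such as CREB, MEF2 and SRF, which switch on a first wave of genes within minutes without new protein synthesis. Arc and Npas4 belong to this wave. A second wave of effectors, which includes secreted factors such as BDNF and neuritin, appears later and acts on synapses and dendrites. In the amygdala these genes are widely used as markers of neurons engaged by emotional and social experience and by fear learning.

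Several libraries stood apart before any comparison was made. B-CTRL 1 is labelled male, but 5 chromosome Y markers summed to 0.400 FPKM there, against 62.2 to 103 FPKM in the other 5 libraries. Eif2s3y, Kdm5d and Uty, matched under the name Kdm6a, made this difference. Ddx3y and Usp9y were near 0 in all libraries. B-CTRL 1 also held choroid plexus transcripts at 7250 FPKM in sum over 8 markers, against 6.0 to 28.7 FPKM elsewhere, although the choroid plexus factor Otx2 was listed at 0 in all libraries. Markers of excitatory neurons (7 of 7 matched genes tested) summed to 422, 12.3 and 146 FPKM in B-CTRL 1, 2 and 3 and to 24.8, 52.9 and 298 FPKM in NB-CTRL 1, 2 and 3. This is a 34.3-fold range that cuts across the groups. In bulk tissue, fewer cells of a type and less RNA per cell cannot be told apart. The vesicular glutamate transporter gene Slc17a7 alone stood at 350, 6.58 and 122 FPKM in B-CTRL and at 16.7, 24.8 and 263 FPKM in NB-CTRL. It was the largest part of the sum in every library. A second transporter gene of the list, Slc17a6, followed another order. It stood at 9.9, 4.1 and 1.8 FPKM in B-CTRL and at 3.6, 21.1 and 6.5 FPKM in NB-CTRL. Markers of striatal and central amygdala projection neurons (8 of 8) ranged from 1025 FPKM in NB-CTRL 2 to 4001 FPKM in B-CTRL 3. NB-CTRL 2 also had the highest sum of hypothalamic and thalamic markers, 73.9 FPKM against 11.3 to 19.9 FPKM in the other libraries. Markers of the amygdala's own nuclei were detected in every library, with sums of 170 to 291 FPKM. Most of each sum came from Lmo3 and from Tac2, matched under the name Tac3 (means of 80.5 and 86.4 FPKM). Single markers could differ widely, and Rspo2 stood at 19.3 FPKM in B-CTRL 1 and 0.299 FPKM in B-CTRL 2. The sums therefore do not show that these nuclei were held in equal share. FPKM sums were 579141 to 641725 in B-CTRL and 522422 to 536937 in NB-CTRL, and the depth in fragments is unknown.

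The promoters of some of these genes carry the cAMP response element (CRE), the site bound by CREB. RefSeq promoter windows of build GRCr8, from 250 bases before to 50 bases after the start, were matched for 7 of the 10 genes (Npas4, Homer1, Plk2, Bdnf, Nptx2, Vgf and Scg2). Arc, Nptx1 and Nrn1 had no entry. The full palindromic CRE, TGACGTCA, was present in the windows of Plk2, Vgf and Scg2, and in 1.83% of all 33469 windows of the table. It began 66 bases before the start in Plk2, 90 in Vgf and 123 in Scg2. The shorter CRE site TGACG, searched on both strands and contained once per strand in each full site, was present without the full site in Nptx2 (90 bases before the start) and in 1 of the Bdnf windows (35 bases before the start). It occurred in 21.2% of all windows. Bdnf has several windows and the others held no such site. That share is per window, so it understates how often a gene with several windows holds the site. The CArG box of SRF was not found in the windows of these 7 genes and occurred in 1.64% of all windows. These matches are descriptions of letters, not of binding. The 4 windows below are those of Plk2, Vgf and Scg2, with the full site, and the Bdnf window with the shorter site. The Nptx2 window is not shown. CRE letters are in capitals, and each window is read 5′ to 3′ on the gene's own strand. The 4 windows lie at chr2:43702286-43702585 (plus strand) for Plk2, chr12:25276971-25277270 (minus strand) for Vgf, chr9:88256817-88257116 (minus strand) for Scg2 and chr3:116637608-116637907 (plus strand) for Bdnf, all in GRCr8.
Plk2: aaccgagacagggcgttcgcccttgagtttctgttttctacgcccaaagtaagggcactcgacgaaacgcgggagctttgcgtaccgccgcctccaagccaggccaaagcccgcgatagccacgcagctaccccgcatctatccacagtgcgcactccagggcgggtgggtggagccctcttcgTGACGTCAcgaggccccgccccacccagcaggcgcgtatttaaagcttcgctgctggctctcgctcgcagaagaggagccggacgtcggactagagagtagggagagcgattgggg
Vgf: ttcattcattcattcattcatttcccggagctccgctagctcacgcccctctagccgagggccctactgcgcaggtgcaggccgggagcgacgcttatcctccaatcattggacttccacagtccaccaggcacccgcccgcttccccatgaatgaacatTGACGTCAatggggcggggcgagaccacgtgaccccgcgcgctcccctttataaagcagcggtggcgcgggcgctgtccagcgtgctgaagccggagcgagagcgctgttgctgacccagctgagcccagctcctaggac
Scg2: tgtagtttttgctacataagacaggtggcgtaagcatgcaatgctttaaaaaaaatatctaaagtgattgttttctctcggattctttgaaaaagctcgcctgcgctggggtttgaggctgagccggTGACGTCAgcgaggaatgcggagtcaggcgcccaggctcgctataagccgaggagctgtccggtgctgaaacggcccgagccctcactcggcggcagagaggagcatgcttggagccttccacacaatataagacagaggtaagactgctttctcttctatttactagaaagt
Bdnf: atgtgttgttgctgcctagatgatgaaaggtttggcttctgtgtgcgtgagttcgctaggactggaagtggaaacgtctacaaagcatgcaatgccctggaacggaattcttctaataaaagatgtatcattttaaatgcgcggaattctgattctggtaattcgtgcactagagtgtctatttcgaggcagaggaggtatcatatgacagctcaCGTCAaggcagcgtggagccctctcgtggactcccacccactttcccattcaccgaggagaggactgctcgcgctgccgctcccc

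The genes spanned a wide range of levels. Averaged over the 6 libraries, the order was Scg2 (166 FPKM), Plk2 (126), Homer1 (49.7), Arc (43.1), Nptx1 (28.6), Vgf (26.1), Nrn1 (24.7), Nptx2 (17.4), Npas4 (4.40) and Bdnf (1.91). Only 2 neighbouring pairs in this order were separated in 6 of 6 libraries, Plk2 above Homer1 and Nptx2 above Npas4. The other 7 neighbouring pairs changed places in at least 2 libraries, so their order does not stand out from the spread. None of the 10 loci was shared with or overlapped another feature of the table, so no gene of the 10 competed with an overlapping partner for reads.

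The comparison asked whether these transcripts differ after social play testing. The averages of Arc and Npas4 were higher in B-CTRL, with the highest values in B-CTRL 3, and the other genes showed small average differences or a large spread within both groups. Of the 10 genes, 7 had a positive log2 difference (B-CTRL minus NB-CTRL) and 3 a negative one, with a median of 0.21, against 49.7% positive and a median of -0.0024 over all 14043 features. That count rested on single libraries: without B-CTRL 1 there were 4 positive and 6 negative differences (median -0.14), and without NB-CTRL 1 there were 5 of each (median -0.015). Removal of the locus length trend also gave 5 of each (median 0.096). None of the 10 passed limma (Benjamini-Hochberg adjusted over all features, threshold 0.05), and 0% of all features did. At an unadjusted p under 0.05 there was 1 of 10 genes, Npas4, beside 12.3% of all features. Leaving out B-CTRL 2, B-CTRL 3, NB-CTRL 2 or NB-CTRL 3 gave 0 of 10 at that p, and leaving out NB-CTRL 1 gave 2 (Arc and Npas4). The share of all features at that p was not taken for these leave-outs. The values of the groups did not overlap for 1 of 10 genes, Arc, beside 23.7% of all features. In the main fit, both counts of 1 of 10 are near or below the background.

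**Figure D1:**
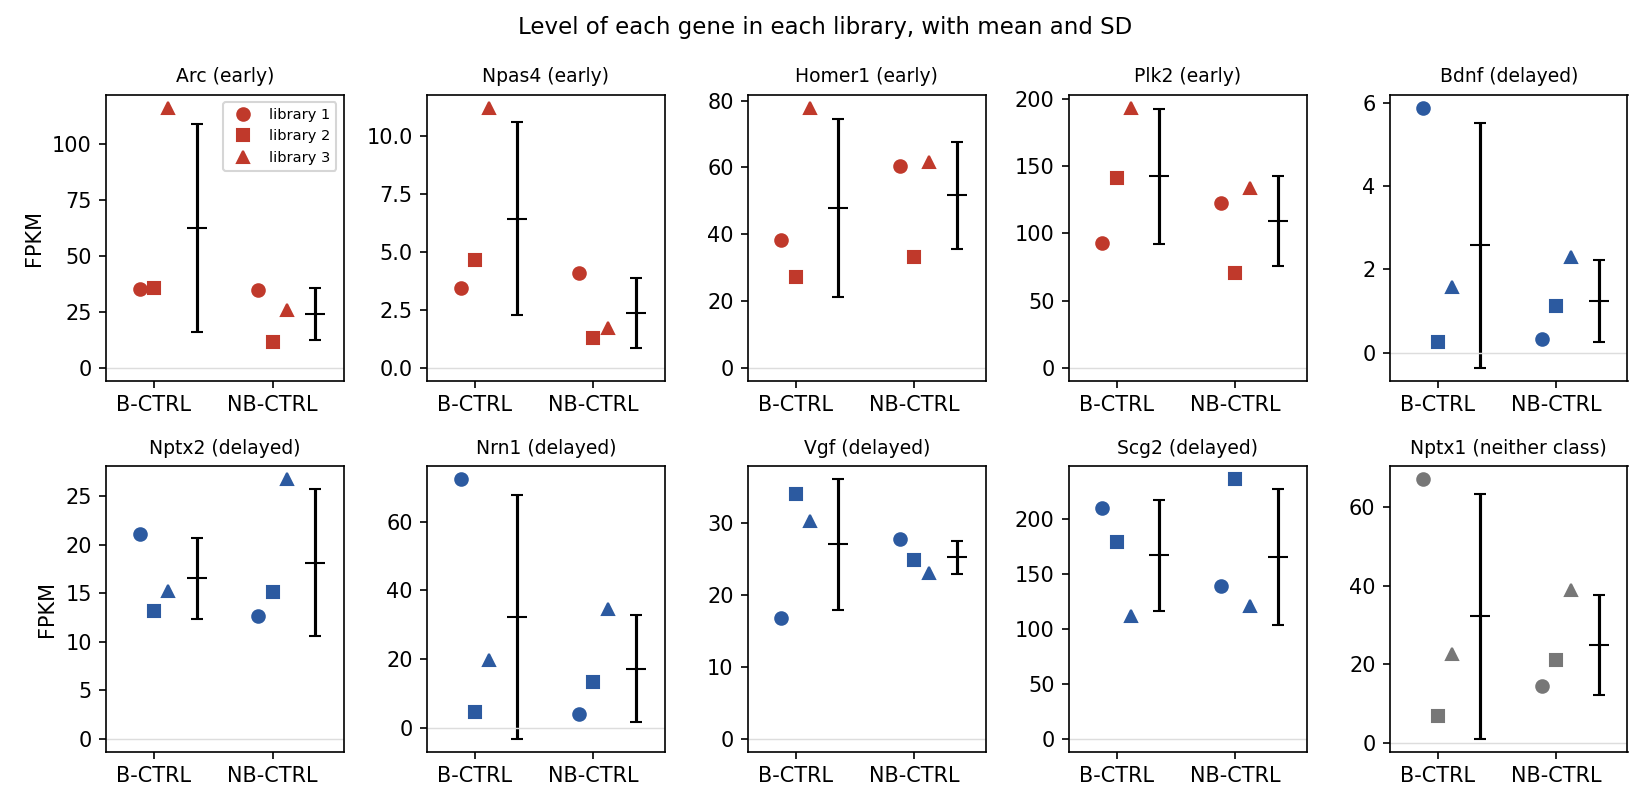
FPKM of the 10 genes in each library (red early, blue delayed, grey neither class); symbols mark libraries 1 to 3 of each group and black bars the mean ± SD (n = 3 per group), on linear axes that differ between panels. Arc and Npas4 are highest in B-CTRL 3 (116 and 11.2 FPKM), and Bdnf, Nrn1 and Nptx1 in B-CTRL 1.

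Among the early genes, Arc encodes a postsynaptic protein that drives AMPA receptor endocytosis. It lies at chromosome 7, 115907096 to 115910541 in build rn6 (ENSRNOG00000043465). Arc had 35.2, 35.6 and 116 FPKM in B-CTRL 1, 2 and 3, against 34.8, 11.4 and 25.7 FPKM in NB-CTRL 1, 2 and 3. The lowest B-CTRL value thus lay just above the highest NB-CTRL value, and B-CTRL 3 lay 3.26-fold above the next library. The log2 difference was 1.25 ± 0.57 (SE, n = 3 per group; limma adjusted p = 0.400). Leaving out B-CTRL 3 gave 0.69, and leaving out NB-CTRL 2, the library with the lowest value, gave 0.80.

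Npas4 encodes an activity-dependent transcription factor that shapes inhibitory and excitatory synapses. It lies at chromosome 1, 220261007 to 220265772 in rn6 (ENSRNOG00000020009). Npas4 stood at 3.45, 4.65 and 11.2 FPKM in B-CTRL 1, 2 and 3 and at 4.08, 1.28 and 1.72 FPKM in NB-CTRL 1, 2 and 3. NB-CTRL 1 lay above B-CTRL 1, so the groups overlapped. The log2 difference was 1.24 ± 0.50 (SE, n = 3 per group; limma unadjusted p = 0.041, adjusted p = 0.400). It was 0.78 without B-CTRL 3. Leaving out B-CTRL 1, the library that goes against its label, gave 1.54 for Arc and 1.56 for Npas4.

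Plk2, a kinase that weakens overactive synapses, had the highest level of the early class. Its values were 93.0, 141 and 193 FPKM in B-CTRL and 123, 70.7 and 134 FPKM in NB-CTRL. Again B-CTRL 3 was highest and NB-CTRL 2 lowest, but B-CTRL 1 lay below NB-CTRL 1 and 3. The log2 difference was 0.37 ± 0.33 (SE; limma adjusted p = 0.584), and it was 0.12 without B-CTRL 3, 0.089 without NB-CTRL 2 and 0.65 without B-CTRL 1.

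Homer1 encodes a postsynaptic scaffold with a long constitutive form and a short form, Homer1a, that is the activity-induced one. The table has 1 value for the gene, so the forms were not separated. Homer1 stood at 38.3, 27.2 and 77.8 FPKM in B-CTRL and at 60.3, 33.1 and 61.5 FPKM in NB-CTRL. B-CTRL 3 was highest here too, while B-CTRL 1 and 2 lay below NB-CTRL 1 and 3. The log2 difference was -0.20 ± 0.41 (SE; limma adjusted p = 0.831), and its sign turned without B-CTRL 2 (0.13). All 4 early genes therefore had their highest value in B-CTRL 3, the library with the highest striatal marker sum. Of these 4, Arc, Npas4 and Plk2 had their lowest value in NB-CTRL 2, the library with the lowest striatal marker sum (1025 FPKM). That sum was nearly as low in B-CTRL 1 (1155 FPKM). There Arc, Npas4 and Plk2 stood at 35.2, 3.45 and 93.0 FPKM, against 11.4, 1.28 and 70.7 FPKM in NB-CTRL 2.

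Among the delayed genes, Bdnf encodes the neurotrophin that signals through TrkB. Its level was low, with 5.88, 0.258 and 1.59 FPKM in B-CTRL 1, 2 and 3, against 0.338, 1.11 and 2.29 FPKM in NB-CTRL 1, 2 and 3. The highest and lowest of the 6 values both came from B-CTRL, a 22.8-fold range. The log2 difference was 0.48 ± 0.79 (SE; limma adjusted p = 0.780), and -0.31 with B-CTRL 1 left out.

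Nrn1 encodes neuritin, a membrane-anchored protein that promotes neurite growth. Nrn1 stood at 72.3, 4.67 and 19.8 FPKM in B-CTRL and at 3.98, 13.2 and 34.4 FPKM in NB-CTRL. Its spread over the 6 libraries (SD of 1.57 on the log2 scale) was at the 99.2 percentile of all features tested, the highest of the 10 genes. The log2 difference of 0.61 ± 1.06 (SE; limma adjusted p = 0.790) turned to -0.33 without B-CTRL 1 and to -0.15 without NB-CTRL 1.

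Nptx1 and Nptx2 encode secreted neuronal pentraxins, which cluster AMPA receptors at excitatory synapses, and Nptx2 (also called Narp) is the activity-regulated one. Nptx1 stood at 67.2, 6.99 and 22.6 FPKM in B-CTRL and at 14.6, 21.1 and 39.1 FPKM in NB-CTRL (log2 difference -0.045 ± 0.77 SE; limma adjusted p = 0.980). Nptx2 varied far less, with 21.2, 13.2 and 15.3 FPKM in B-CTRL and 12.6, 15.2 and 26.8 FPKM in NB-CTRL (log2 difference -0.087 ± 0.30 SE; limma adjusted p = 0.901). The level of Nptx1 was 3.17, 0.531 and 1.48 times that of Nptx2 in B-CTRL 1, 2 and 3 and 1.15, 1.39 and 1.46 times in NB-CTRL 1, 2 and 3. Without B-CTRL 1 the log2 difference of Nptx1 was -0.83, and without B-CTRL 2 it was 0.76.

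Vgf and Scg2 encode granin-family cargo of dense-core vesicles, from which neuropeptides are cut. Vgf stood at 16.7, 33.9 and 30.3 FPKM in B-CTRL and at 27.7, 24.8 and 23.1 FPKM in NB-CTRL, and the lowest value was that of B-CTRL 1. Its log2 difference was 0.040 ± 0.26 (SE; limma adjusted p = 0.949), and 0.35 without B-CTRL 1. Scg2 stood at 210, 179 and 112 FPKM in B-CTRL and at 140, 236 and 121 FPKM in NB-CTRL, with a log2 difference of 0.026 ± 0.32 (SE; limma adjusted p = 0.972). Its highest value lay in NB-CTRL 2 and its lowest in B-CTRL 3, the reverse of Arc and Plk2. Vgf had the smallest spread of the 10 genes over the 6 libraries (SD of 0.35 on the log2 scale).

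**Figure D2:**
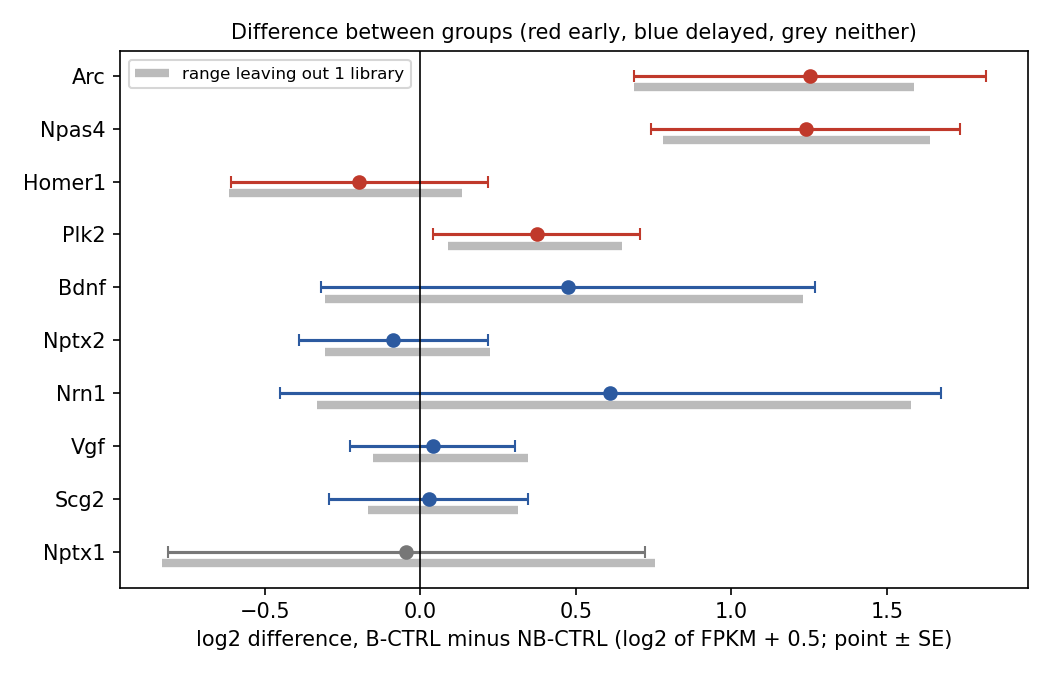
Log2 difference of each gene, B-CTRL minus NB-CTRL, on the log2(FPKM + 0.5) scale (points, with SE bars from limma), and the range of the difference when each of the 6 libraries is left out (grey bars). Arc, Npas4 and Plk2 lie above 0 throughout, and for Homer1, Nptx1 and the 5 delayed genes the grey bar crosses 0.

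Early and delayed genes were then set against each other library by library. The score of a class is the mean, over its genes, of log2(FPKM + 0.5) minus the gene's own 6-library mean. In B-CTRL 1, 2 and 3 the early score took the values -0.15, -0.025 and 1.18, against 0.16, -0.99 and -0.17 in NB-CTRL 1, 2 and 3. The delayed score took the values 0.82, -0.53 and 0.028 in B-CTRL, against -0.69, -0.0043 and 0.37 in NB-CTRL. The classes thus stood apart in different libraries: the early score was highest in B-CTRL 3 and lowest in NB-CTRL 2, the delayed score highest in B-CTRL 1 and lowest in NB-CTRL 1. These delayed extremes rested mainly on Bdnf (deviations of 1.80 and -1.13 in B-CTRL 1 and NB-CTRL 1) and Nrn1 (2.19 and -1.83). Nptx2 (0.33 and -0.39) and Scg2 (0.395 and -0.20) deviated less, and Vgf went the other way (-0.59 and 0.12). Early minus delayed came to -0.98, 0.51 and 1.15 in B-CTRL, against 0.84, -0.98 and -0.54 in NB-CTRL, so both groups held positive and negative values.

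On average the early score was 0.67 higher in B-CTRL than in NB-CTRL (pooled within-group SD 0.67), the delayed score 0.21 higher (SD 0.61), and early minus delayed 0.45 higher (SD 1.03). These averages are descriptions and carry no test. The early average was about as large as that SD, and the others were smaller. Without B-CTRL 3 the early average was 0.24 and early minus delayed -0.0083. Without NB-CTRL 2 those were 0.34 and 0.077. Without B-CTRL 1 the delayed average was -0.15 and early minus delayed 1.06, and without NB-CTRL 1 they were -0.077 and 0.99. By gene, 3 of 4 early genes had a positive difference (median 0.81) and 4 of 5 delayed genes did (median 0.040), and without B-CTRL 1 this was 3 of 4 (median 1.10) and 1 of 5 (median -0.27).

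**Figure D3:**
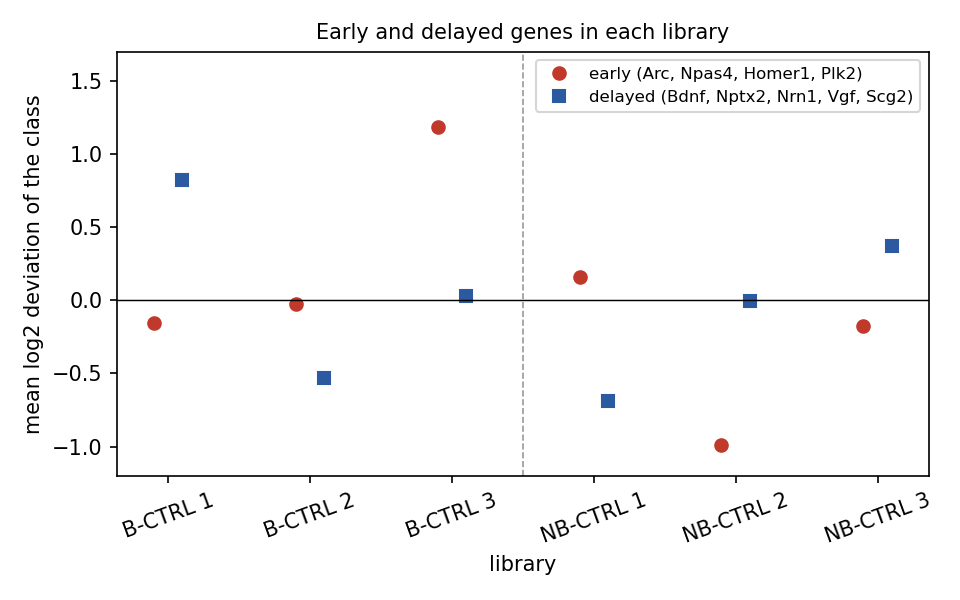
Mean log2 deviation of the early genes (red circles) and the delayed genes (blue squares) in each library, B-CTRL left of the dashed line and NB-CTRL right of it. The early score peaks in B-CTRL 3 (1.18) and the delayed score in B-CTRL 1 (0.82), and the 2 classes exchange places within both groups.

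The delayed genes did not follow one pattern. Bdnf and Nrn1 varied together with Nptx1, the gene of neither class: Bdnf and Nptx1 ranked the 6 libraries in the same order, and Nrn1 differed from it only in the lowest pair. The root mean square difference between the centred log2 profiles was 0.29 for Bdnf and Nptx1 and 0.42 for Bdnf and Nrn1, while it was 1.08 for Bdnf and Scg2 and 1.33 for Bdnf and Vgf. Over all pairs of the 10 genes, Arc and Npas4 were the closest (0.29) and Npas4 and Nrn1 the farthest (1.79). Nptx2, Vgf and Scg2, the other delayed genes, stayed within a 2.12-fold range from the lowest to the highest library, against 22.8-fold for Bdnf, 18.2-fold for Nrn1 and 9.61-fold for Nptx1.

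**Figure D4:**
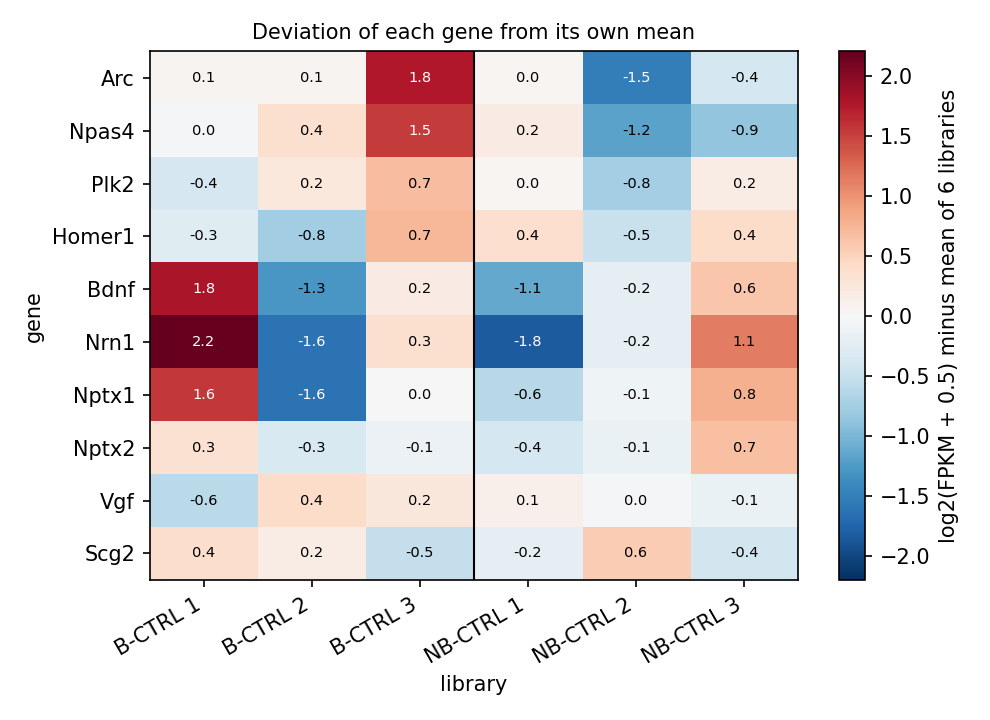
Log2(FPKM + 0.5) of each gene in each library minus the gene's own mean over the 6 libraries (red above, blue below, numbers to 1 decimal), B-CTRL left of the black line. Arc and Npas4 share the B-CTRL 3 peak and the NB-CTRL 2 low, and Bdnf, Nrn1 and Nptx1 share a peak in B-CTRL 1 and lows in B-CTRL 2 and NB-CTRL 1.

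The score of the excitatory neuron markers ranked the libraries in exactly the order of Bdnf and Nptx1. Not every marker in the score did so, and Slc17a6 was highest in NB-CTRL 2. In B-CTRL 1, 2 and 3 the score came to 1.45, -1.64 and 0.47, against -1.01, -0.37 and 1.09 in NB-CTRL 1, 2 and 3. With it as a covariate, a setting chosen after seeing the data, the SE of the log2 difference was 0.28 for Bdnf, 0.29 for Nrn1 and 0.23 for Nptx1, in place of 0.79, 1.06 and 0.77. The differences themselves were 0.31, 0.38 and -0.21 in that fit, and none passed (lowest limma adjusted p of the 10 genes 0.299). Arc and Npas4 had differences of 1.24 and 1.26 (SE 0.61 and 0.52). The score has the library order of Bdnf and Nptx1 and was chosen after that was visible. The smaller SE of Bdnf, Nrn1 and Nptx1 is therefore no independent support for a link. Whether the share of excitatory neurons plays a part was not tested.

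Arc, Npas4 and Plk2 were highest and lowest in the same libraries as the score of the striatal and central amygdala markers. It came to -0.83, 0.18 and 0.95 in B-CTRL, against 0.40, -0.88 and 0.18 in NB-CTRL. The low of B-CTRL 1 was thus close to that of NB-CTRL 2. Each marker was highest in B-CTRL 3, but Drd2 and Adora2a were lowest in B-CTRL 1 and Pde10a in B-CTRL 2. With that score as a covariate, also chosen after seeing the data, Arc had a log2 difference of 1.05 ± 0.29 (SE; limma unadjusted p = 0.012, adjusted p = 0.360). Npas4 had 1.07 ± 0.29 (SE; limma unadjusted p = 0.011, adjusted p = 0.360) and Plk2 0.25 ± 0.13 (SE; limma adjusted p = 0.370). None of the 10 genes passed in that fit. Because the setting was chosen with these profiles seen, the smaller SE and the unadjusted p-values cannot serve as support. The share of all features at an unadjusted p under 0.05 was not taken for it.

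**Figure D5:**
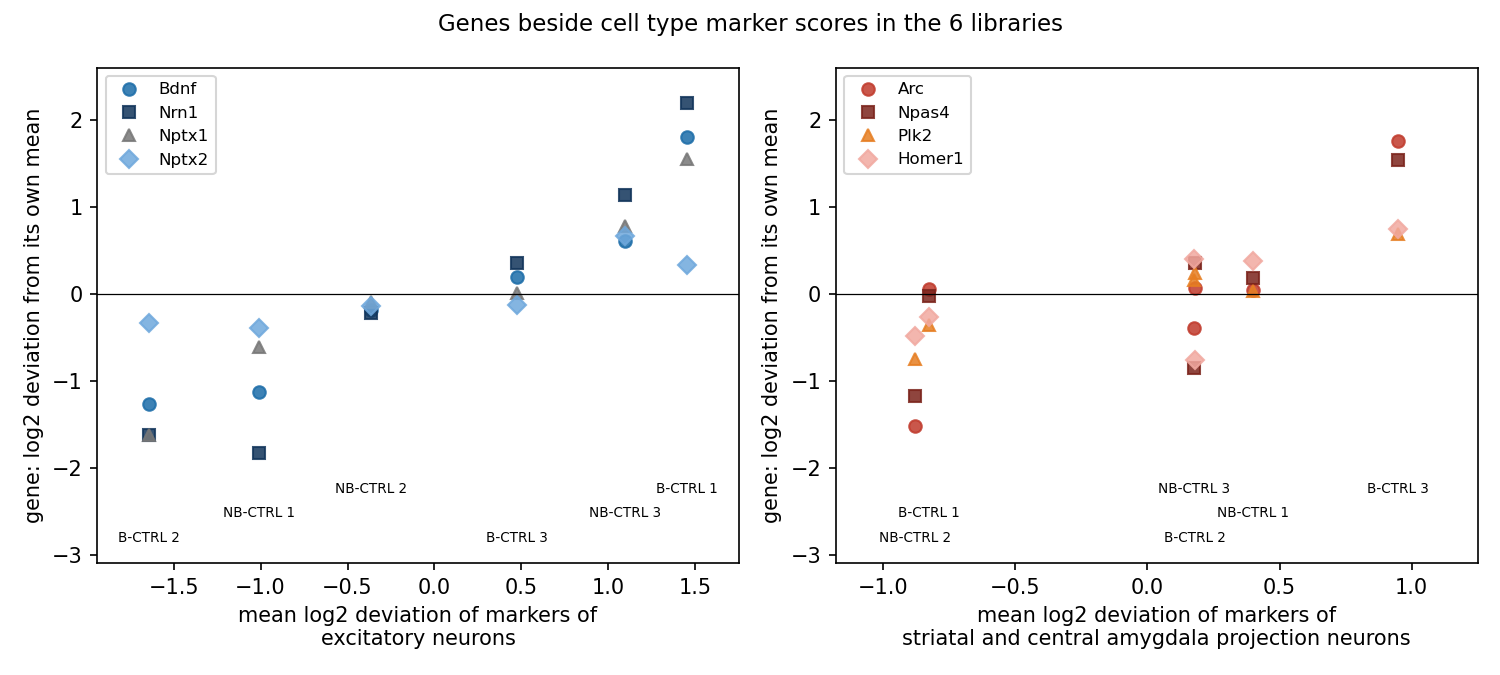
Log2 deviation of 4 genes from their own means beside the score of excitatory neuron markers (left; Bdnf, Nrn1, Nptx1 and Nptx2) and of 4 early genes beside the score of striatal and central amygdala projection neuron markers (right), with 1 position per library named at the foot. Bdnf and Nptx1 follow the order of the excitatory score, from B-CTRL 2 (-1.64) to B-CTRL 1 (1.45), and Nptx2 covers a narrower range.

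Over the 6 libraries, the features most like Arc among 7743 with a mean of at least 5 FPKM and a locus of their own were Fos (root mean square difference 0.29), Nr4a1 (0.31), Junb (0.45) and Arl4d (0.45). Those most like Npas4 were Arc (0.29), Fos (0.37), Tnnt1 (0.44) and Arl4d (0.45). Fos, the AP-1 subunit, had 11.8, 10.4 and 25.8 FPKM in B-CTRL and 7.46, 4.12 and 7.85 FPKM in NB-CTRL. Like Arc, it was highest in B-CTRL 3 and lowest in NB-CTRL 2. Among those nearest to Homer1 were Camkk2 (0.068), Klf9 (0.10) and Wscd2 (0.11), none of them a classical early gene. Camkk2, a calcium/calmodulin-dependent kinase kinase, had 21.6, 15.9 and 48.6 FPKM in B-CTRL and 35.8, 21.7 and 37.2 FPKM in NB-CTRL. Nearest to Bdnf were Nptxr (0.28), the membrane-bound pentraxin receptor, Nptx1 (0.29), Rtn4r (0.36) and Dkk3 (0.41). Nptxr had 210, 25.9 and 81.8 FPKM in B-CTRL and 40.6, 59.6 and 157 FPKM in NB-CTRL, the same order of libraries as Bdnf and Nptx1. Nearest to Nptx2 were Fbln1 (0.12), Fam81a (0.13), S100a6 (0.15) and Ak5 (0.17).

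The rest of the activity programme was read from lists of genes other than the 10. None of their members passed limma over all features, and the lowest adjusted p in any list was 0.400. Of 37 other early activity-regulated genes tested, 31 had a positive log2 difference (median 0.36), 7 of them at an unadjusted p under 0.05 beside 6.25% of all features in that direction, and 0 at that p in the other direction. The 3 with the lowest p were Apold1 (3.36 ± 0.179 FPKM in B-CTRL and 1.74 ± 0.404 FPKM in NB-CTRL, SD, n = 3 each), the phosphatase gene Dusp1 and the antiproliferative gene Btg2. The list's score was 0.56 in B-CTRL 3 and -0.54 in NB-CTRL 2, the libraries where Arc was highest and lowest, and without either of these libraries 24 of 37 genes were positive (medians 0.21 and 0.17). Without B-CTRL 1 it was 28 of 36 (median 0.48).

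Of 17 other delayed genes tested, 11 had a positive difference (median 0.21), and 0 had an unadjusted p under 0.05 in limma. The member with the lowest p, Crem, encodes a CREB-related factor and stood at 17.4 ± 3.20 FPKM in B-CTRL and 13.0 ± 2.61 FPKM in NB-CTRL (SD, n = 3 each). The vesicle protein gene Syt4 and the G protein regulator gene Rgs4 followed (log2 differences 0.20 ± 0.11 and 0.45 ± 0.25 SE). Npy was listed at 0 in all libraries, which can be a failed estimate.

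Factors and kinases upstream of the 10 genes leaned the other way, with 16 of 20 negative (median -0.26) and 3 at an unadjusted p under 0.05 in limma, beside 6.07% of all features in that direction. Arnt, a basic helix-loop-helix PAS factor of the type that pairs with Npas4, stood at 7.49 ± 0.613 FPKM in B-CTRL and 11.3 ± 0.775 FPKM in NB-CTRL (log2 difference -0.57 ± 0.14 SE; limma adjusted p = 0.400). The CREB coactivator gene Crtc3 (-0.72 ± 0.26 SE) also had a lower average. Without B-CTRL 2, 11 of 20 were negative (median -0.019), and without B-CTRL 1, 13 of 20 were (median -0.32). Over all 6 leave-outs the median lay between -0.43 and -0.019. Of 18 postsynaptic partners of Arc, Homer1 and Plk2, 14 were negative (median -0.20), 3 of them at an unadjusted p under 0.05 (the endocytic gene Dnm3, the scaffold gene Shank1 and Homer2, all at loci shared with another feature). Without B-CTRL 1 it was 11 of 18, and 10 of 18 when B-CTRL 2 was left out, with medians of -0.53 to -0.14 over the 6 leave-outs.

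Of 13 genes for BDNF processing, receptors and relatives, 9 were negative (median -0.20), and the median was -0.39 without B-CTRL 3 and -0.12 without NB-CTRL 1. Ntrk2, which encodes the BDNF receptor TrkB, stood at 88.6, 74.0 and 83.4 FPKM in B-CTRL and at 96.2, 112 and 111 FPKM in NB-CTRL. Each B-CTRL value lay below each NB-CTRL value (log2 difference -0.37 ± 0.13 SE; limma unadjusted p = 0.023, adjusted p = 0.400). Kidins220, a TrkB substrate, was also lower in each B-CTRL library (57.0 ± 10.1 FPKM against 73.3 ± 4.20 FPKM in NB-CTRL, SD, n = 3 each), and the adaptor gene Shc3 came next by p. The groups did not overlap for 2 of these 13 genes, Ntrk2 and Kidins220, beside 23.7% of all features. Of 6 pentraxin and neuritin partners, 4 were positive (median 0.11), and 0 had an unadjusted p under 0.05 in limma. Without B-CTRL 1 it was 3 of 6 (median -0.062), without NB-CTRL 1 3 of 6 (median -0.037), and without NB-CTRL 2 3 of 6 (median 0.019). The neuritin relative Nrn1l had 24.6, 26.6 and 34.0 FPKM in B-CTRL and 35.0, 33.3 and 31.3 FPKM in NB-CTRL, so it did not share the wide range of Nrn1, and Cnih2 and Gria4, both at shared loci, came next by p. Of 14 granin and peptide processing genes, 7 were positive and 7 negative (median -0.024), with 0 at an unadjusted p under 0.05 in limma. Without B-CTRL 2 it was 9 positive (median 0.14), without B-CTRL 3 6 positive (median -0.15), and over the 6 leave-outs the median lay between these values. By p these were led by Igf1r, Cadps and the amidating enzyme gene Pam (Igf1r and Pam at shared loci). Pam stood at 127 ± 10.1 FPKM in B-CTRL and 105 ± 10.3 FPKM in NB-CTRL (SD, n = 3 each).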

How the data were processed

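The authors deposited 1 table of FPKM values, 1 column per library per the file headers, made with STAR 2.5.4b, Cuffdiff 2.2.1 and build rn6 per the submitters' processing notes. Not given in the sources used here are the settings, the annotation release and the use of strand. Libraries were poly(A)-selected and directional, per the labels' protocols. FPKM were used as deposited. Features averaging 0.5 FPKM or more were tested on log2(FPKM + 0.5), B-CTRL minus NB-CTRL, by limma (version 3.58.1, under R 4.3.3), 2-sided, with an intensity trend, no covariate and Benjamini-Hochberg adjustment over all features tested. This scale understates the change of low genes such as Bdnf. Exact permutation of 3 libraries against 3 gives no p below 0.1 and was not run. The fit was tested on simulated data.

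The 10 genes, their classes and the gene lists were chosen with earlier results of these data known. All 10 were named. From each list up to 3 genes were named, those with the lowest p and a mean of at least 1 FPKM, and for Arc, Npas4, Homer1, Bdnf and Nptx2 the 4 features with the closest centred log2 profile. A few items that these rules name are not reported here. Of 130 distinct list symbols 126 matched the table, and of 77 marker symbols 74. Inhibitory, hippocampal, astrocyte, oligodendrocyte, microglial and endothelial marker sums differed by 1.80, 3.36, 1.49, 2.32, 1.42 and 1.68 times between the highest and lowest library. Coordinates of genes are those of the table, in rn6, and promoters those of RefSeq in GRCr8.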

Additional observations from a re-analysis of the deposited data

How the results depend on the processing

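The SE of the 10 genes was 0.26 to 1.06 on the log2 scale, and the fragments behind low values such as Bdnf are unknown. The number of features called was 0 in all settings but one: leaving out 1 library gave 0 to 1 features, the 1 being SNORA70 (without NB-CTRL 3), named after its value was seen. None of the 10 genes was called under any of 19 alternatives, with adjusted p from 0.272. Arc, Npas4 and Plk2 stayed above 0 in each, and the early average in the 13 alternatives computed for it.

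The sign turned for Nptx1 with median scaling (0.048), quantile normalization (0.024), library weights (0.52) and the striatal covariate (0.081), for Nptx2 with median scaling (0.0077) and library weights (0.024), for Scg2 with quantile normalization (-0.16) and removal of the locus length trend (-0.092), and for Vgf with library weights (-0.17), removal of the length trend (-0.095) and the striatal covariate (-0.027). Early minus delayed was -0.056 with library weights. Leaving out 1 library gave -0.31 to 1.23 for Bdnf, -0.33 to 1.58 for Nrn1, -0.17 to 0.31 for Scg2, -0.61 to 0.13 for Homer1, -0.83 to 0.76 for Nptx1, -0.31 to 0.22 for Nptx2 and -0.15 to 0.35 for Vgf. The causes were not tested.

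Both groups carry replicate numbers 1 to 3. Deviations of same-numbered libraries correlated at -0.222, 0.0719 and 0.147, and B-CTRL 1 correlated best with NB-CTRL 2 (0.215). These values do not show that the numbers pair the samples, and they cannot exclude it. With the replicate number as a block 0 features and 0 of the 10 genes were called, and the 1 gene at an unadjusted p under 0.05 was Arc in place of Npas4 (limma adjusted p = 0.447 for both). The 10 genes held 2 at that p with median scaling and with the striatal covariate, and 0 with no filter, library weights, removal of the length trend and the excitatory covariate. The share of all features at that p was taken for the main fit only (12.3%). Counts of the 10 genes at that p in other settings therefore have no background beside them.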
